A study of Mus musculus with 2 samples.

Results

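The 10 genes described here encode the interleukin-1 family cytokines IL-1β (Il1b) and IL-18 (Il18), the IL-1 receptor antagonist (Il1rn), the cytokines IL-6 (Il6), TNF (Tnf) and IL-10 (Il10), and the inflammasome parts Nlrp3, Pycard, Casp1 and Casp4. They were chosen by symbol, with earlier results of these data known. They were looked up among 15181 distinct genes of 22 deposited tables from interstitial cells of the infarcted mouse ventricle. Each table compares 1 library of PostnMCM control cells with 1 library of Yapfl/fl;Wwtr1fl/+;PostnMCM cells within a cluster. Both carried the R26-eGFP reporter and PostnMCM, a tamoxifen-inducible Cre whose expression from Postn is active in fibroblasts that become myofibroblasts, so the floxed alleles of Yap1 and Wwtr1 are aimed at those cells and not at leukocytes. Both received 0.4 g/kg tamoxifen chow from the time of myocardial infarction (MI), and hearts were taken 6 days after MI by the labels (a later day by the methods of the study). The mice were adults by those methods, and neither strain background nor the number of hearts per library is given in the sources used here. Viable cells were sorted after Langendorff digestion, and each library filled 1 lane of a 10x Chromium chip.

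IL-1β and IL-18 are made as inactive precursors. An inflammasome assembles when a sensor such as NLRP3 recruits the adaptor ASC, the product of Pycard, which in turn clusters caspase-1, and caspase-1 then cuts both precursors and the pore former gasdermin D. Caspase-4, known in mice as caspase-11, senses bacterial lipopolysaccharide in the cytosol and cuts gasdermin D directly, while Il1rn, IL-10 and the inhibitors of NF-kB restrain the response. In the infarcted heart neutrophils, monocytes and macrophages are known sources of these transcripts, and cardiac fibroblasts respond to IL-1.

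The measure is the share of cells of a cluster with a corrected count above 0, given by the authors for each library, and a difference is the share in the library labelled Yap/Wwtr1-depleted minus that in the control library, in percentage points. A share says in how many cells a transcript was seen and not how much each cell held, and the mean level need not move with it. With 1 library per genotype there are no replicates, so no value has an error and no test was made. "Higher" and "lower" mark differences of 10 points or more, and they describe these libraries rather than the genotypes. The 18 cluster tables hold 159 to 1914 genes each, picked by the authors for a detected share of at least 25% in 1 library and for a minimum difference in mean level, so a gene missing there has no value. A gene under 25% in 1 library can be listed only with the larger share in the other, so the direction of such a listing was fixed beforehand. The 4 fibroblast subcluster tables hold 15059 genes each without such limits. The study states totals of cells and mean reads per cell for the libraries, but the tables used here give neither cells nor counts for a cluster, and shares of small clusters move in steps: the depleted library of subcluster 4 takes 11 distinct values with 10.0% as the lowest above 0, and the control library of cluster 18 takes 12 with 9.1% as the lowest. In the subclusters the targeted Yap1 was in 23.3% to 57.5% of control cells and in 40% to 56.2% of cells labelled depleted, and its share was smaller in the library labelled depleted in subcluster 4 (57.5% and 40%) but larger in the other 3. Wwtr1, of which 1 allele was floxed, was in 81.4% and 90.6% of cells in subcluster 0, 93.3% and 91.3% in subcluster 3, 80% and 60% in subcluster 4 and 100% and 85.7% in subcluster 5, so its share was smaller in the library labelled depleted in 3 of 4. As Yap1 did not go down throughout, the word "labelled" is kept. The study itself reports less nuclear Yap and Wwtr1 protein by staining in reporter-positive cells of this genotype, which a share of cells with a transcript does not measure. The libraries also differed in every table at Ftl1-ps2, a ferritin light chain pseudogene, at 0.0% to 5.2% of control cells and 28.3% to 100% of cells labelled depleted.

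Casp1 and Casp4 lie side by side on chromosome 9 (GRCm39, GENCODE vM39), at chr9:5298508-5307290 and chr9:5308828-5336783 on the plus strand, with 1537 bases between them. Because they are the members whose shares were larger in the library labelled depleted in all 4 fibroblast subclusters, the 250 bases before the start of each canonical transcript are shown 5′ to 3′, at chr9:5298258-5298507 and chr9:5308593-5308842. For Casp1 in subcluster 5 that rests on the lowest share above 0 in each library. Capitals mark the match to the letters searched for an NF-kB site, GGG and TTTCC with 2 free bases between them.
Casp1: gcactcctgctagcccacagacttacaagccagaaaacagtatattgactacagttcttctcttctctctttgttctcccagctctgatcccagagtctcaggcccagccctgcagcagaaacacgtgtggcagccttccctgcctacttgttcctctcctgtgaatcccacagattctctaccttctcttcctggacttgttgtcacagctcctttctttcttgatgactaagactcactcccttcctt
Casp4: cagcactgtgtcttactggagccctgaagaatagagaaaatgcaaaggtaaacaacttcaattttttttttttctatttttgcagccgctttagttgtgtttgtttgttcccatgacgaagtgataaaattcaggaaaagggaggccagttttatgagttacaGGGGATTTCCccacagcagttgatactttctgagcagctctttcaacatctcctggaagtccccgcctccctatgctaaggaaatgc
The match in the Casp4 window begins 87 bases before the start. Searched on both strands in the same window, these letters occurred in 3 of the 10 members, Casp4, Il18 and Il6, and in 1.47% of 21770 protein-coding promoters. The interferon-stimulated response element core, GAAA repeated after 2 free bases, was in 0 of 10 members and 3.32% of promoters, and the gamma-activated site, TTC and GAA with 3 free bases between them, in 0 of 10 and 7.7%. A match is a description of letters and not of a bound site. The other members lie apart, with Il1b (chr2:129206490-129213059) and Il1rn (chr2:24226865-24241506) on chromosome 2, Il18 at chr9:50466081-50493633, Il6 at chr5:30218112-30224979, Tnf at chr17:35418357-35420983, Il10 at chr1:130947581-130952711, Nlrp3 at chr11:59432394-59457782 and Pycard at chr7:127588558-127593039.

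In the neutrophil clusters, cluster 1 and cluster 18, the IL-1 receptor antagonist was detected in more cells of the library labelled depleted. The adaptor gene Pycard, listed in cluster 18 and not in cluster 1, was too, and Il1b, listed in cluster 1, was near its ceiling in both libraries. Il1b, the cytokine neutrophils carry in abundance, was in 94.8% of control cells and 96.5% of cells labelled depleted in cluster 1. Il1rn was in 26.7% and 45.2% of cells there, which is 18.5 points higher. In the small cluster 18 Il1rn was in 27.3% and 35.3% of cells, a difference of 8.0 points. Both neutrophil clusters therefore had the larger Il1rn share in the same library, though in cluster 18 by less than 10 points. Pycard was in 9.1% of control cells, the lowest share above 0 in that column, and in 41.2% of cells labelled depleted, which is 32.1 points higher. Of 4 listings of members in these clusters, 2 were higher and 0 lower, where 28.2% of the listings of all genes were higher and 46.4% lower (22.1% and 21.5% in cluster 1, 29.5% and 51.9% in cluster 18). All genes of cluster 18 had a median difference of -11.8 points, and relative to it Il1rn there was 19.8 points up and Pycard 43.9.

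The names of these clusters were checked against neutrophil markers. Cluster 1 lists 1 of 9, Retnlg, at 85.9% of control cells and 64.1% of cells labelled depleted. It also lists markers of other cells near 100%, the dendritic cell markers H2-Ab1 (95.1% and 96.1%) and Cst3 (100% and 99.6%) and the macrophage marker Apoe (100% and 99.2%), so its listed markers alone do not mark it as neutrophils and the name is that of the study. Cluster 18 lists 4 of 9, with the granule gene Camp in 100% of cells of both libraries, the chemokine receptor gene Cxcr2 in 81.8% and 70.6%, the collagenase gene Mmp8 in 63.6% and 47.1% and Retnlg in 63.6% and 70.6%. Markers of other cells moved in cluster 18 too. The monocyte markers Plac8 and Chil3 were in 54.5% and 82.4% and in 90.9% and 100% of cells, the fibroblast marker Col3a1 in 36.4% and 5.9%, and the red blood cell marker Hbb-bs in 36.4% and 0.0%. The part of other cells in the Il1rn and Pycard shares was not tested. In both clusters the decoy receptor gene Il1r2, which binds IL-1 without signalling, was higher, at 59.8% and 69.9% in cluster 1 and at 45.5% and 58.8% in cluster 18. Il1r2 was singled out after its values were seen.

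**Figure D1:**
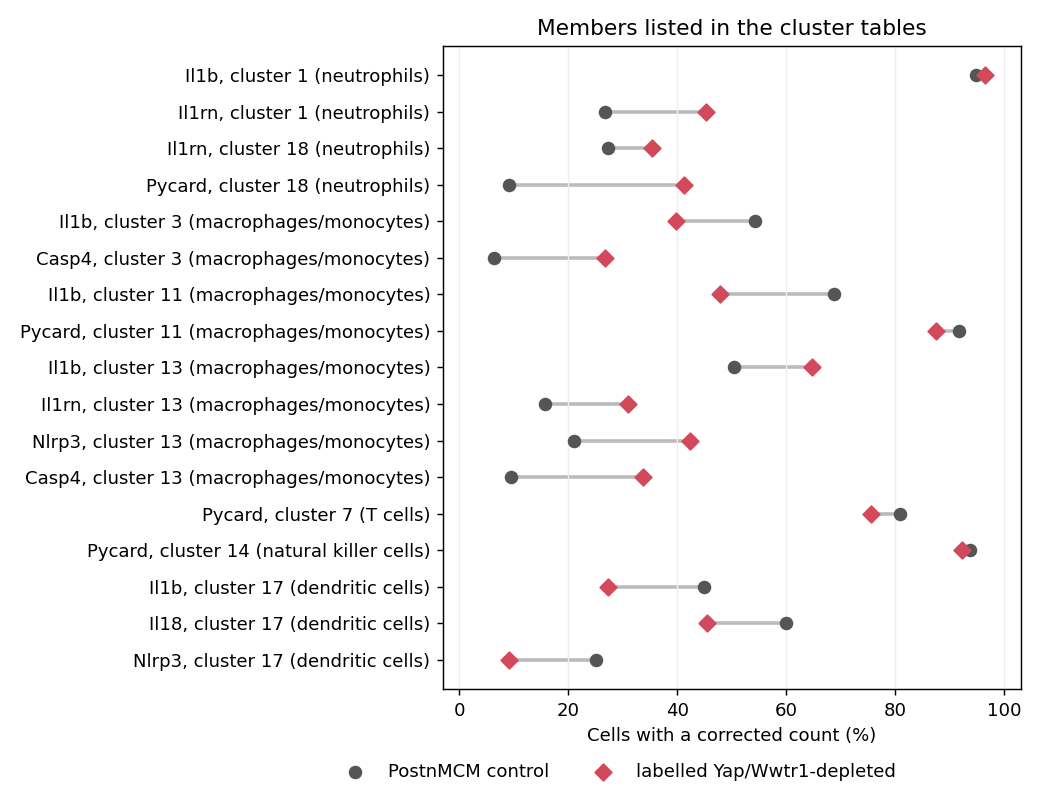
Share of cells with a corrected count (%) for each of the 17 listings of members in the cluster tables, grey circles for the PostnMCM control library and red diamonds for the library labelled Yap/Wwtr1-depleted. Il1b moves left in clusters 3, 11 and 17 and right in cluster 13. Both Casp4 listings move right, a direction fixed by the share needed for listing.

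Among the macrophage/monocyte clusters Il1b split by cluster, lower in clusters 3 and 11 and higher in cluster 13. Casp4 was higher in clusters 3 and 13, the only cluster tables that list it. In both, its control share was below the share needed for listing, so the direction of these listings was fixed beforehand. In cluster 3, which bears the macrophage markers Adgre1 (74.8% and 75.8%) and Fcgr1 (80.5% and 84.4%), Il1b was in 54.3% of control cells and 39.8% of cells labelled depleted. Casp4, the cytosolic sensor of lipopolysaccharide, was in 6.4% and 26.8% of the same cells. Cells of cluster 3 in the library labelled depleted thus carried Il1b less often and Casp4 more often.

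In cluster 11 Il1b was in 68.8% of control cells and 47.9% of cells labelled depleted, a difference of -20.9 points. Pycard was nearly everywhere in it, at 91.7% and 87.5%. Cluster 11 did not hold a plain macrophage profile: the macrophage marker Csf1r was in 79.2% and 50% of its cells and the dendritic cell marker Flt3 in 50% and 75.0%.

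Cluster 13 bore monocyte markers, with Ccr2 in 100% of cells of both libraries, Ly6c2 in 95.8% and 88.7% and Vcan in 92.6% and 94.4%. All 4 of its listed members were higher. For Il1rn, Nlrp3 and Casp4 the control share was below the share needed for listing, so their direction was fixed beforehand. Only Il1b could have been listed in either direction. Il1b was in 50.5% of control cells and 64.8% of cells labelled depleted, and its antagonist Il1rn in 15.8% and 31.0%. The sensor gene Nlrp3 was in 21.1% and 42.3%, and Casp4 in 9.5% and 33.8%. These differences ran from 14.3 points for Il1b to 24.3 for Casp4. They stand against a cluster in which 41.7% of 893 listed genes were higher, 25.9% were lower and the median difference was 4.6 points, and relative to that median Il1b was 9.7 points up, under the limit, while the other 3 stayed above it.

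Clusters 0 and 12 list none of the 10 genes. Over the 5 macrophage/monocyte tables there were 8 listings, 5 higher and 2 lower, where 37% of all listings were higher and 28.4% lower. The share of all genes that were higher was 35.9% in cluster 3 and 26.2% in cluster 11, and 16.2% and 44.2% were lower.

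Neutrophil transcripts moved with some of these values. In cluster 3 both listed neutrophil markers had smaller shares in the library labelled depleted, their summed share going from 109.2 to 50.6 points, and in cluster 11 all 7 listed did, from 297.2 to 104.1. In cluster 13 the 4 listed also had smaller shares, from 238.9 to 163.4, although Il1b was higher there. Sums of macrophage and monocyte markers went from 255.3 to 259.8 and from 126.9 to 109.6 points in cluster 3. They went from 370.1 to 258.4 and from 270.8 to 195.8 in cluster 11, and from 232.6 to 216.9 and from 386.3 to 374.6 in cluster 13. The part of neutrophil RNA, or of the mix of cells, in the Il1b shares was not tested.

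Outside these clusters 3 of 11 tables list any member. In dendritic cells (cluster 17, with Flt3 in 95.0% and 100% of cells) Il1b was in 45.0% of control cells and 27.3% of cells labelled depleted. Il18 was in 60% and 45.5%, and Nlrp3 in 25% and 9.1%, the lowest share above 0 in that column. All 3 were lower, but 52.4% of the 1914 genes of this table were lower too (34% higher) and their median was -13.6 points. Relative to that median the differences were -4.1 for Il1b, -0.9 for Il18 and -2.3 for Nlrp3, so none of the 3 stood apart from the table. The 2 neutrophil markers listed there went from a summed 75.0 to 36.4 points. Pycard was common in lymphocytes, at 80.8% and 75.5% of cells in T cell cluster 7 and 93.7% and 92.3% in natural killer cluster 14, neither of them past 10 points (18.1% of all genes higher and 44.7% lower in cluster 7, 26.5% and 35.1% in cluster 14). Of 5 listings, 0 were higher and 3 lower, beside 34.1% and 40.9% of all listings in these 11 tables.

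Over all 18 cluster tables, 6 of the 10 genes had 17 listings in 8 tables, 7 higher and 5 lower, beside 34.1% and 38.6% of the listings of all genes. Centred on each table's median, 7 were higher and 2 lower. Il6, Tnf, Il10 and Casp1 are in none of these tables, and no value can be given for them in leukocytes.

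The 4 fibroblast subclusters compared give all 10 genes at any level. Other subclusters of the study have no comparison, among them one it describes as derived mainly from Yapfl/fl;Wwtr1fl/+;PostnMCM hearts. It describes subclusters 0 and 4 as mainly from control hearts. Fibroblast markers of the 4 subclusters summed to 500.0 to 674.0 points over 7 genes in the control library and 534.4 to 681.0 in the library labelled depleted. Across these subclusters Casp4 was higher in 3 of 4 and Casp1 in subcluster 0 alone. Il1b was lower in 3 of 4, and IL-6, TNF, IL-10 and NLRP3 transcripts were rare in both libraries.

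Casp4 was in 14.5% of control cells and 31.2% of cells labelled depleted in subcluster 0. It was in 16.7% and 47.8% in subcluster 3, and in 17.5% and 40% in subcluster 4. In subcluster 5 it was in 4.3% of control cells, the lowest share above 0 in that column, and in 9.5% of cells labelled depleted. Casp4 was thus higher in 3 of 4 subclusters, by 16.7 to 31.1 points, a pattern shared by 3.81% of the 15059 genes. With clusters 3 and 13, its share was larger in the library labelled depleted in all 6 tables that list it, and by 10 points or more in 5 of them. In clusters 3 and 13 that direction was fixed by the share needed for listing, and in the subclusters it was not.

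Casp1, the protease of the canonical inflammasome, followed with smaller differences. It was in 11.7% and 21.9% of cells in subcluster 0, 13.3% and 21.7% in subcluster 3, 12.5% and 20% in subcluster 4, and 4.3% and 4.8% in subcluster 5. The differences were 10.2, 8.4, 7.5 and 0.5 points, so that Casp1 was higher in subcluster 0 alone. Casp1 and Casp4 were the members with the larger share in the same library in all 4 subclusters, as were 6.52% of all genes. For Casp1 in subcluster 5 both shares are the lowest above 0 in their columns, so its direction there says little.

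**Figure D2:**
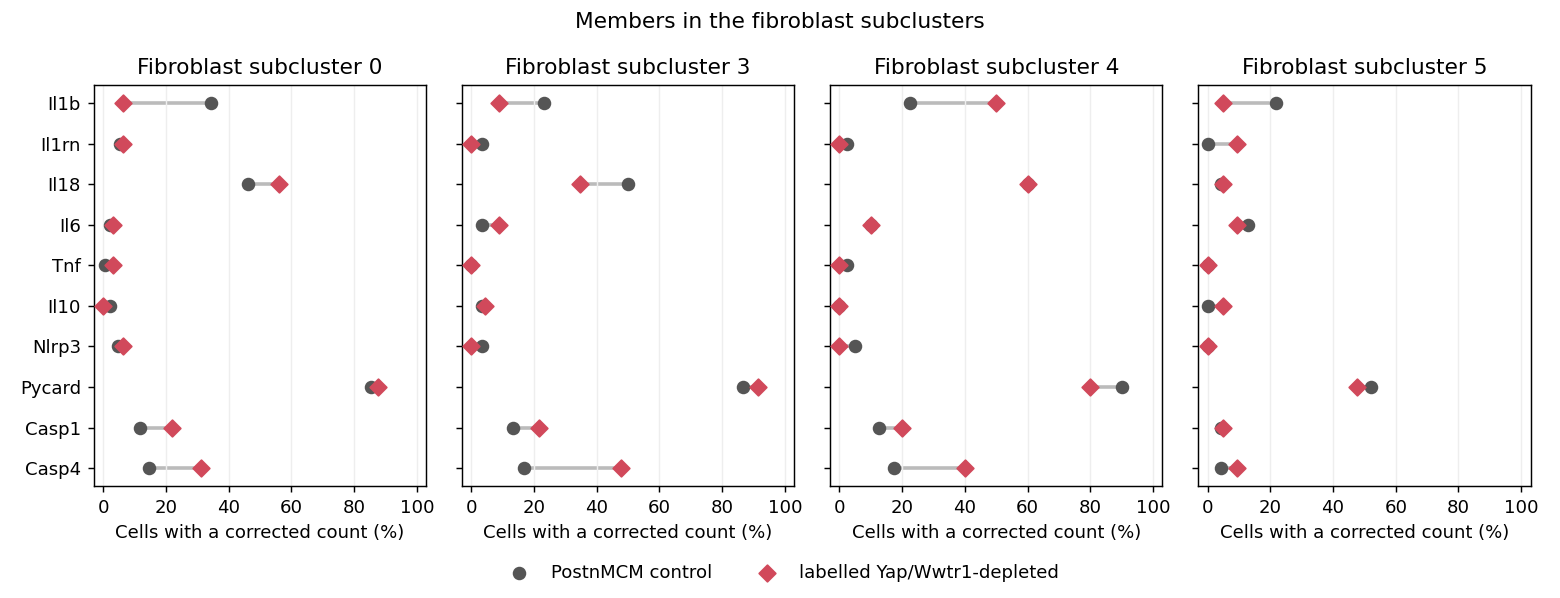
Share of cells with a corrected count (%) for all 10 genes in fibroblast subclusters 0, 3, 4 and 5, grey circles for the control library and red diamonds for the library labelled Yap/Wwtr1-depleted. Casp4 moves right in each panel, by 16.7, 31.1, 22.5 and 5.2 points, and Il1b moves left except in subcluster 4.

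Pycard was the most widely detected of the 10 genes in fibroblasts. It was in 85.5% and 87.5% of cells in subcluster 0, 86.7% and 91.3% in subcluster 3, 90.0% and 80.0% in subcluster 4, and 52.2% and 47.6% in subcluster 5. Its transcript was therefore counted in most cells of 3 subclusters in both libraries, and was 10.0 points lower in subcluster 4, where the lowest share above 0 in the library labelled depleted is as large. Nlrp3 reached at most 6.2% in any subcluster or library, and was at 0.0% in the library labelled depleted in subclusters 3, 4 and 5 and in the control library in subcluster 5. The neutrophil transcripts S100a8 and S100a9 were in 91.0% and 91.7% of control cells of subcluster 0 as well, so a share of this size does not by itself place a transcript in fibroblasts. In these tables the adaptor was thus detected far more often than the sensor, as a share of cells.

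Il18 was common in subclusters 0, 3 and 4 and rare in subcluster 5. It was in 46.2% and 56.2% of cells in subcluster 0, 50% and 34.8% in subcluster 3, and 60% of both libraries in subcluster 4, so it was higher in the first by 10.0 points, lower in the second by 15.2 and level in the third. In subcluster 5 it was in 4.3% and 4.8%. Subcluster 5 had the smallest shares of Il1b, Il18, Pycard, Casp1 and Casp4 in both libraries, as it did for 13.8% of all genes. Its own fibroblast markers summed to the most points of the 4 subclusters.

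Il1b was in 34.5% of control cells and 6.2% of cells labelled depleted in subcluster 0, 23.3% and 8.7% in subcluster 3, and 21.7% and 4.8% in subcluster 5. It was lower in these 3 by 28.3, 14.6 and 16.9 points, a pattern shared by 2.96% of all genes. In subcluster 4 it was higher, in 22.5% and 50% of cells, but the library labelled depleted takes only 11 distinct shares there, with 10.0% the lowest above 0. The direction of Il1b thus differed between subclusters in these libraries, with the opposite direction resting on that coarse share.

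Markers of other cells moved beside it. Of the 9 neutrophil markers 8 are listed, and 7, 7, 7 and 4 of them had smaller shares in the library labelled depleted in subclusters 0, 3, 4 and 5. Their summed share went from 289.0 to 115.6 points, 283.5 to 143.4, 260.0 to 140.0 and 230.4 to 157.1. The abundant neutrophil transcript S100a8 was in 91.0% and 43.8% of the cells of subcluster 0, and in 82.5% and 40% in subcluster 4. The macrophage complement gene C1qb was in 82.8% and 37.5% in subcluster 0 and in 77.5% and 10.0% in subcluster 4. The sums for the 9 macrophage markers went from 447.7 to 315.6, 423.3 to 386.8, 435.0 to 360.0 and 365.1 to 309.5 points, with 8, 4, 5 and 4 markers smaller and 0, 4, 3 and 4 larger in the library labelled depleted. Much of that came from C1qb, chosen after its values were seen. Without it the sums were 364.9 and 278.1, 343.3 and 347.7, 357.5 and 350.0, and 282.5 and 261.9 points, and in subcluster 4 C1qa (67.5% and 80%), Csf1r (57.5% and 70.0%) and Mrc1 (12.5% and 20%) had larger shares in the library labelled depleted.

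The 5 monocyte markers summed to 293.8 and 212.5, 266.7 and 204.2, 230.0 and 170.0, and 243.5 and 209.6 points. The secreted lectin gene Chil3, also chosen after its values were seen, carried most of this, at 75.2% and 9.4% of the cells of subcluster 0, and without it the sums were 218.6 and 203.1, 186.7 and 199.9, 165.0 and 170.0, and 200 and 204.8. Markers of red blood cells went from 98.5 to 12.4, 119.9 to 21.6, 97.5 to 0.0 and 60.7 to 0.0 points. In subcluster 4, where Il1b was higher, the neutrophil, macrophage and monocyte sums were all smaller in the library labelled depleted. The sums without C1qb or Chil3 leave out the marker with the largest fall in its list, so they were bound to fall less. T cell markers went the other way, from 34.4 to 75.0, 40.1 to 112.9, 35.0 to 120.0 and 13 to 128.6 points. The part of RNA from these cells in the Il1b, Il18, Pycard and caspase shares of fibroblasts was not tested.

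**Figure D3:**
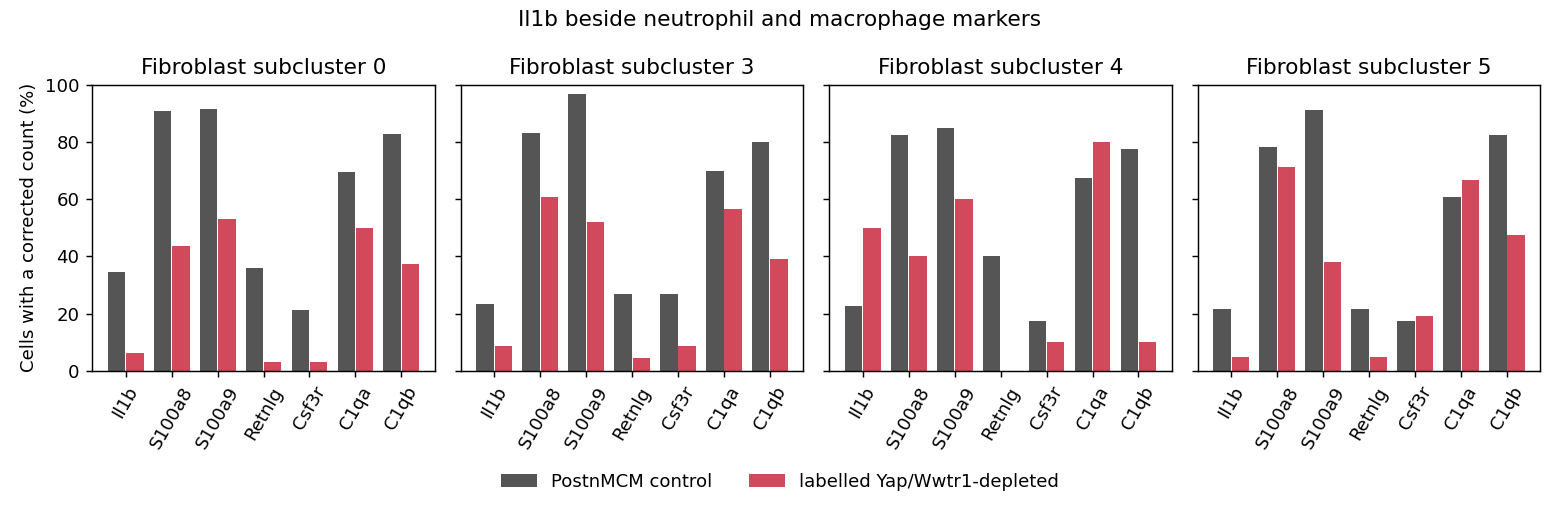
Share of cells with a corrected count (%) for Il1b, 4 neutrophil markers (S100a8, S100a9, Retnlg, Csf3r) and 2 macrophage markers (C1qa, C1qb) in each fibroblast subcluster, grey bars for the control library and red bars for the library labelled Yap/Wwtr1-depleted. The red bar is the shorter for S100a8, S100a9 and C1qb in all 4 panels, and for Il1b in subclusters 0, 3 and 5 but not in subcluster 4 (22.5% and 50%).

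The remaining cytokines were near the floor of these tables. Il6 was in 2.1% and 3.1%, 3.3% and 8.7%, 10.0% and 10.0%, and 13% and 9.5% of the cells of subclusters 0, 3, 4 and 5. Il1rn did not exceed 9.5%, Il10 4.8% and Tnf 3.1% in any subcluster or library. Tnf was at 0.0% in both libraries in subclusters 3 and 5, where the tables give no number of cells from which to take the share that a count of 0 allows, and the lowest shares above 0 were 3.3% and 4.3% in subcluster 3 and 4.3% and 4.8% in subcluster 5. None of the 4 differed by 10 points.

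Of the 40 listings in the fibroblast subclusters compared, 6 were higher and 5 lower, near the 17.4% and 15.4% of all genes. As a group the 10 genes did not stand apart in these subclusters, and the fibroblasts outside them have no value. By subcluster, 3 were higher and 1 lower in subcluster 0 (10.8% and 9.85% of all genes), 1 and 2 in subcluster 3 (13.1% and 17.1%), 2 and 1 in subcluster 4 (24.7% and 20.3%), and 0 and 1 in subcluster 5 (21.2% and 14.3%).

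The other genes of these pathways were read from 8 lists of 102 further genes. The counts of each list stand against the share of all listings that were higher and lower, which was 28.2% and 46.4% in neutrophil tables, 37% and 28.4% in macrophage/monocyte tables, 34.1% and 40.9% in the other clusters and 17.4% and 15.4% in the fibroblast subclusters. The list of inflammatory caspases, pore formers and helpers stood highest in fibroblasts, where 24 of 44 listings were higher and 5 lower, with a median of 10.0 points beside 0.0 for all genes. Gsdme, a pore former cut by caspase-3, was higher in all 4 subclusters, at 17.2% and 65.6%, 23.3% and 69.6%, 20% and 60%, and 8.7% and 57.1%. It was higher in fibroblast cluster 5 as well (5.7% and 44.9%), and lower in neutrophil cluster 1 (40.8% and 19.3%) and in cluster 9 (47.1% and 14.3%), which the study does not name. Gsdme (chr6:50165868-50240842, minus strand) overlaps Pals2, listed in the tables as Mpp6 (chr6:50087139-50185549, plus strand), over 19682 bases. Mpp6 was at 28.3% and 96.9% in subcluster 0, 23.3% and 100% in subcluster 3, 30% and 90.0% in subcluster 4 and 47.8% and 95.2% in subcluster 5, and whether reads of one gene were counted for the other was not tested. The tables of clusters 1 and 9, where Gsdme was lower, do not list Mpp6.

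The guanylate-binding protein genes, interferon-induced GTPases that help caspase-4 reach lipopolysaccharide, were in the same list. Gbp3 was higher in all 4 subclusters, at 39.3% and 62.5%, 36.7% and 60.9%, 27.5% and 50%, and 13% and 38.1%. Gbp7 was higher in them too, by 12.9 to 21.2 points, and in macrophage/monocyte cluster 0, at 27.1% and 42.6%, and in fibroblast cluster 5, at 27.9% and 55.1%. It was lower in cluster 11, at 47.2% and 20.8%, and in T cell cluster 10, at 36.4% and 22.6%. Gbp2 was higher in subcluster 0 by 12.7 points, in cluster 0 by 19.9 and in cluster 5 by 10.4, and differed by 6.3, 0.0 and 3.8 in subclusters 3, 4 and 5. Gbp5 differed by 0.5 to 3.2 points in the subclusters. Gsdmd, the pore former that caspase-1 and caspase-4 cut, was in 66.2% and 68.8% of cells in subcluster 0 and was higher in subclusters 3, 4 and 5 by 21.6, 10.0 and 18.9 points. In cluster 15, which the study leaves unidentified, Gsdmd was in 0.0% and 40.9%. Gbp2, Gbp3 and Gbp5, and the values of Gbp7 outside cluster 11 and of Gsdmd outside cluster 15, were singled out after being seen, and the guanylate-binding protein genes have similar sequences, so reads may be split between them.

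**Figure D4:**
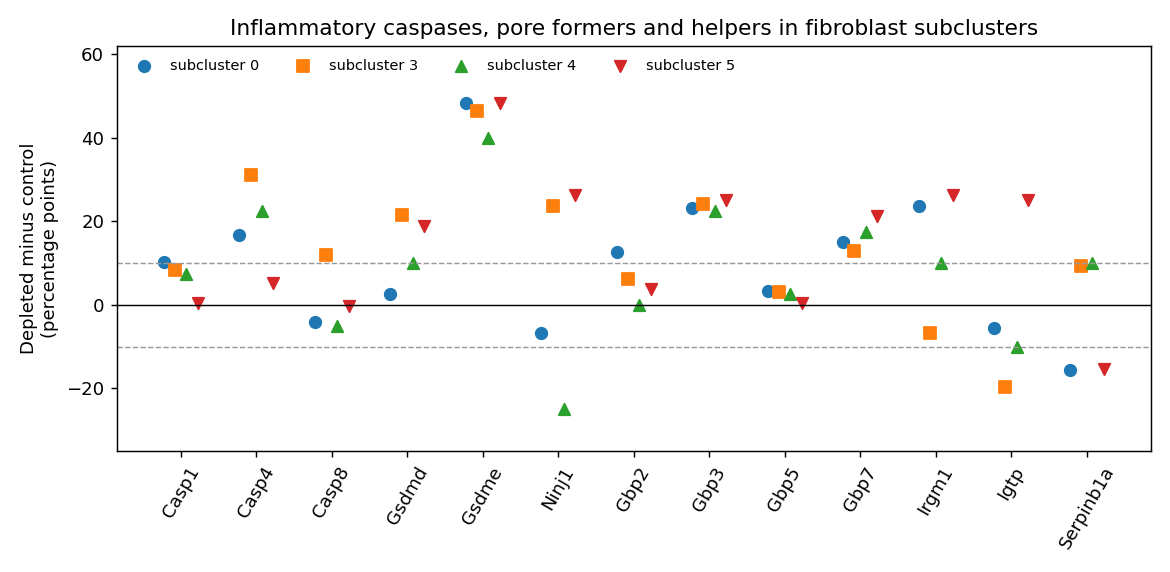
Difference in share of cells (library labelled Yap/Wwtr1-depleted minus control, percentage points) for each gene of the caspase and pore former list in the 4 fibroblast subclusters, 1 symbol per subcluster, with dashed lines at 10 points either way. Gsdme, Gbp3 and Gbp7 lie above the upper line in all 4, while Ninj1 and Igtp scatter to both sides.

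The same list gave 4 higher and 2 lower of 7 in macrophages/monocytes (median 15.5), 1 and 1 of 2 in neutrophils (-5.15), and 6 and 4 of 11 in the other clusters (10.4). In the list of sensors, adaptors and helpers, 3 of 3 were higher in neutrophils (13.9), among them the pyrin gene Mefv in cluster 1 at 23.0% and 34.0%. In macrophages/monocytes 2 of 5 were higher and 2 lower (-0.7), and the NLRP3 partner Nek7 was higher in cluster 0 (42% and 60.7%) but lower in cluster 13 (44.2% and 23.9%), where Nlrp3 was higher. This list gave 4 and 3 of 9 in the other clusters (8.4) and 4 and 2 of 40 in the fibroblast subclusters (0.0). Mefv and Nek7 were chosen after their values were seen.

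NF-kB factors, inhibitors and immediate targets were higher more often than lower in both phagocyte groups, with 5 of 9 higher and 0 lower in neutrophils (median 11.2) and 8 of 15 higher and 1 lower in macrophages/monocytes (14.2). Among all genes, higher listings also outnumbered lower ones in the macrophage/monocyte tables (37% and 28.4%), but not in the neutrophil tables (28.2% and 46.4%). Nfkb1 itself was in 9.1% and 47.1% of the cells of neutrophil cluster 18. Its control share is the lowest above 0 in that column and under 25%, so the gene could be listed there only in this direction. In monocyte cluster 13, where Il1b, Nlrp3 and Il1rn were higher, the early response gene Ier3 was in 18.9% and 63.4% of cells. In the other clusters 7 of 25 were higher and 10 lower (-3.9), with Zfp36, which destabilizes cytokine mRNAs, in 40.6% and 77.3% of cluster 15. In fibroblasts 17 of 72 were higher and 15 lower (-0.35), with Relb at 23.3% and 60.9% in subcluster 3, Nfkbia, an inhibitor of NF-kB, at 55.0% and 90.0% in subcluster 4, and Ier3 at 91.3% and 52.4% in subcluster 5.

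Toll-like receptor and MyD88 genes, which prime Il1b and Nlrp3 transcription, were higher in 4 of 5 listings and lower in 1 in neutrophils (13.9). In cluster 18 the kinase gene Irak4 was in 9.1% and 47.1% of cells, its control share again the lowest above 0 in that column. The receptor gene Tlr2 was in 45.5% and 35.3%. In macrophages/monocytes 4 of 8 were higher and 3 lower (4.9), and the lipopolysaccharide co-receptor Cd14 was in 51.6% and 84.5% of cluster 13. In the other clusters 3 of 7 were higher and 3 lower (-8.2), and in dendritic cluster 17 the adaptor genes Ticam1 (45.0% and 0.0%) and Tirap (45.0% and 9.1%) were lower. In fibroblasts 16 of 68 were higher and 11 lower (0.0), with the co-receptor Ly96 at 55.0% and 20% in subcluster 4.

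IL-6 and gp130 family genes were higher in 6 of 8 listings and lower in 1 in macrophages/monocytes (11.8), beside 37% and 28.4% of all listings there. Osm, the ligand oncostatin M, was in 3.2% and 40.8% of the cells of cluster 13. The family gave 1 of 1 higher in neutrophils (20.3), 2 of 8 higher and 5 lower in the other clusters (-12.6), and 8 of 48 higher and 7 lower in fibroblasts (-1.65). TNF pathway genes were higher in 3 of 5 listings in neutrophils with 0 lower (11.7), where the kinase gene Ripk1 was in 9.1% and 35.3% of cluster 18. The control share of Ripk1 there is also the lowest above 0 in its column. In macrophages/monocytes 4 of 11 were higher and 4 lower (8.4), and in cluster 11 Ripk1 (50.7% and 22.9%) and Tnfaip2 (38.2% and 10.4%) were lower. The counts were 6 and 5 of 13 in the other clusters (-6.2) and 10 and 12 of 52 in fibroblasts (0.45), with Tnfaip2 at 73.9% and 38.1% in subcluster 5.

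Genes of the IL-10 pathway gave 0 higher and 1 lower of 1 in neutrophils, the repressor gene Etv3 at 27.3% and 11.8% of cluster 18. They gave 2 and 2 of 4 in macrophages/monocytes (1.75), 2 and 2 of 4 in the other clusters (-1.95) and 5 and 2 of 20 in fibroblasts (-1.7). Other IL-1 family genes were higher in 2 of 3 listings in neutrophils with 0 lower (10.1), were in no macrophage/monocyte table, and were higher in 1 and lower in 1 of 4 in the other clusters (-2.4). Those 2 are from fibroblast cluster 5, where the alarmin gene Il33 was in 64.8% and 49.2% of cells and the receptor gene Il1r1 in 56.7% and 70.1%, both chosen after being seen. In the subclusters 7 of 36 were higher and 3 lower (2.2). Il33 there was higher in subcluster 4 (25% and 60%), a rise as large as that of Nfkbia, and lower in subcluster 5 (60.9% and 33.3%), where Il1r1 was lower as well (78.3% and 61.9%). Over all lists, 19 of 29 listings were higher and 3 lower in neutrophils (median 11.7), 30 and 15 of 58 in macrophages/monocytes (10.4), 31 and 33 of 81 in the other clusters (-4.1), and 91 and 57 of 380 in fibroblasts (0.0). These are 38.3% and 40.7% of the listings in the other clusters, beside 34.1% and 40.9% of all genes there, and 23.9% and 15% in fibroblasts, beside 17.4% and 15.4%.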

How the data were processed

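Per the labels and the methods of the study, the authors aligned reads with Cell Ranger 6.1.1 to GRCm39 extended by reporter sequences, normalized them in Seurat with SCTransform, regressed out the mitochondrial share, and clustered the cells. The deposited tables compare both libraries within 18 clusters and 4 fibroblast subclusters. The value used is the fraction of a cluster's cells in which the corrected count exceeds 0, deposited by the authors per library and printed as a percent. Further columns hold the authors' own comparison (average log2 fold change, p-value, adjusted p-value) and were not used. No doublet caller is named in the sources used here, so doublets may remain. Cluster names follow the study.

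The 10 genes and the 8 pathway lists were chosen with earlier results of these data known. Named are all 10 genes and, of the lists, the 3 largest rises and 3 largest falls in the neutrophil, macrophage/monocyte, other and fibroblast subcluster tables. Further genes, among them single cell type markers, Ftl1-ps2 and Mpp6, were chosen after their values were seen. Differences of 10 points or more were counted, with pandas 2.3.3 in Python 3.11.15. The counting was tested on simulated data. Alternatives were limits of 5 and 20 points, a log2 ratio of shares, centring on the table's median, share minimums, and leaving out clusters 6, 9 and 10. Genes and promoters were read from GRCm39 with GENCODE vM39. Each group held 1 library, and the tables give no depth or number of cells per cluster.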

Additional observations from a re-analysis of the deposited data

Results flagged for a closer look

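Of the 10 genes, 4 differed by 10 points or more in opposite directions in different cell groups. Each direction comes from 1 library against 1, and the difference between the cell groups was not tested. Il1b differed by -28.3 points in fibroblast subcluster 0 and by 27.5 points in subcluster 4, where the lowest share above 0 in the library labelled depleted was 10.0%. Il18 differed by -15.2 points in subcluster 3 and by 10.0 points in subcluster 0. Nlrp3 differed by -15.9 points in dendritic cell cluster 17, whose median over all genes was -13.6, and by 21.2 points in monocyte cluster 13. Pycard differed by -10 points in subcluster 4 and by 32.1 points in neutrophil cluster 18, 2 tables in which the lowest share above 0 in 1 library was 10.0% and 9.1%. Nlrp3 in clusters 17 and 13 and Pycard in cluster 18 reached 25% in 1 library only, so the listing limit fixed their direction there.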

How the results depend on the processing

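No paired analysis was possible because there was a single library of either genotype. Of 40 recomputed counts of higher and lower listings, 24 stayed within 1.5 times the reported count and 16 did not. The 24 include lower listings in neutrophils and higher listings in the other clusters, which were 0 as reported and at every setting. With a limit of 20 points, higher listings were 1 in neutrophils, 3 in macrophages/monocytes and 3 in fibroblast subclusters, and lower listings were 1 in macrophages/monocytes, 0 in the other clusters and 1 in fibroblast subclusters. With a limit of 5 points, 11 listings were higher in fibroblast subclusters. By the log2 ratio of shares, with 1 point added to each and a limit of 1, higher listings were 1 in neutrophils and 2 in macrophages/monocytes, and lower listings were 0 in macrophages/monocytes, 1 in the other clusters and 9 in fibroblast subclusters. With a share minimum of 50% in clusters, 0 were higher in neutrophils and 1 in macrophages/monocytes, and with a minimum of 25% in subclusters 3 were lower. Centred on the table's median, 0 were lower in the other clusters. Centring turned the sign of 2 of 57 listings, neither of them past 10 points as reported. Leaving out clusters 6, 9 and 10 changed no count, since they list none of the 10 genes. The share of cells cannot be read against depth, since the tables give neither counts nor numbers of cells per cluster and library.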
